A study of Mus musculus with 8 samples.

Results

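The MHC class II genes, with the invariant chain and the factors that serve them, were followed in 8 RNA-seq libraries of astrocytes, glial cells that feed and support neurons. The 8 genes were taken by symbol from a deposited table of 21878 genes: the 3 classical chain genes H2-Aa, H2-Ab1 and H2-Eb1, the invariant chain gene Cd74, the 2 chain genes of the peptide-exchange factor H2-DM (H2-DMa and H2-DMb1), the transactivator gene Ciita and the thiol reductase gene Ifi30. All 8 were found. The cells were isolated from newborn C57BL/6 mice and carry the wild-type genotype in the labels. There were 4 libraries of resting cells with no treatment and 4 of cells given a mix of TNFα, interleukin-1α and C1q, a complement protein. Such a cocktail is used to obtain reactive astrocytes, here ones that carry the complement fragment C3d. The sources used here give neither dose nor duration. The labels do not say whether the libraries of a group came from separate cultures or animals, so each p-value reflects only the spread among these libraries, and that spread may be technical.

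MHC class II molecules are cell-surface dimers of an α and a β chain that show peptides from the endosome to CD4+ T cells. The new dimer is held by the invariant chain Cd74, which fills the groove and guides it to the endosome, where proteases trim Cd74 and H2-DM exchanges the remaining fragment for a peptide. Ciita is the master switch of these genes: interferon-γ, through the kinases Jak1 and Jak2 and the factor Irf1, induces it, and it docks on a complex of RFX and NF-Y proteins bound at a conserved promoter element, the X and Y boxes. In the brain, microglia and border macrophages are the usual carriers of class II, and cultured astrocytes can gain it after interferon-γ. The C57BL/6 strain lacks a working E α chain gene, so the product of H2-Eb1 has no partner in these mice.

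The promoter element was looked up in the members, since it is where Ciita is known to act. RefSeq promoter windows of GRCm38.p6, each of 300 bases with 250 before the transcript start, were at hand for 5 members and for 4 other class II genes. The letters GNAAC (the left part of the X box) followed by ATTGG (the Y box, which reads CCAAT on the other strand) with 30 to 33 bases from start to start were searched on both strands. The spacing was set with these windows in view. The pair was present in the windows of 3 of the 5 members, namely H2-Aa, H2-Eb1 and H2-DMb1, and of 3 of the 4 other genes, H2-Oa, H2-Ob and H2-Eb2. Of all 32851 windows 0.712% held the pair and 37.4% held ATTGG or CCAAT alone. The stretches around the pair are shown 5′ to 3′ on the gene's strand with the 2 letter groups in capitals, for the 3 members and for H2-Eb2, a neighbour that was at 0 in every library.
H2-Aa, chr17:34287855-34287916, minus strand: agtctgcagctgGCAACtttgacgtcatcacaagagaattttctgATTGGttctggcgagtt
H2-Eb1, chr17:34305764-34305824, plus strand: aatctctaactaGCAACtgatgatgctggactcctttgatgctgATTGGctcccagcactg
H2-DMb1, chr17:34153085-34153146, plus strand: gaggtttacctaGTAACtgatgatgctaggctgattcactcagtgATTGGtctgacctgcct
H2-Eb2, chr17:34325531-34325591, plus strand: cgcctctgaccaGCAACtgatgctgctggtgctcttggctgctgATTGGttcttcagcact
The ATTGG of these genes begins 48, 59, 61 and 100 bases before the transcript start. The pair was not found in the windows of Ifi30 and H2-DMa, which says only that these letters are not in those windows. A match describes the letters and does not show that a factor was bound.

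Values are FPKM, that is fragments scaled by counted gene length and by the fragment total of the library. Whole fragments behind each value were recovered from the table, with library totals of 19195898 to 20640490. Log2 changes are cocktail minus untreated on the log2(FPKM + 1) scale, which understates changes of low genes, and were tested with limma over all 11845 genes that reached 1 FPKM in at least 4 of the 8 libraries. Genes with a Benjamini-Hochberg adjusted p under 0.05 were called. Of the 7 members tested 6 were called higher and 0 lower. Over all genes tested, 26.6% were called higher and 41.1% lower as deposited, or 36.2% and 33.5% after rescaling the libraries by median ratios. H2-Eb1 reached 1 FPKM only in cocktail libraries, and H2-Aa reached it in only 2 untreated libraries, so the count of 6 is not read further.

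**Figure D1:**
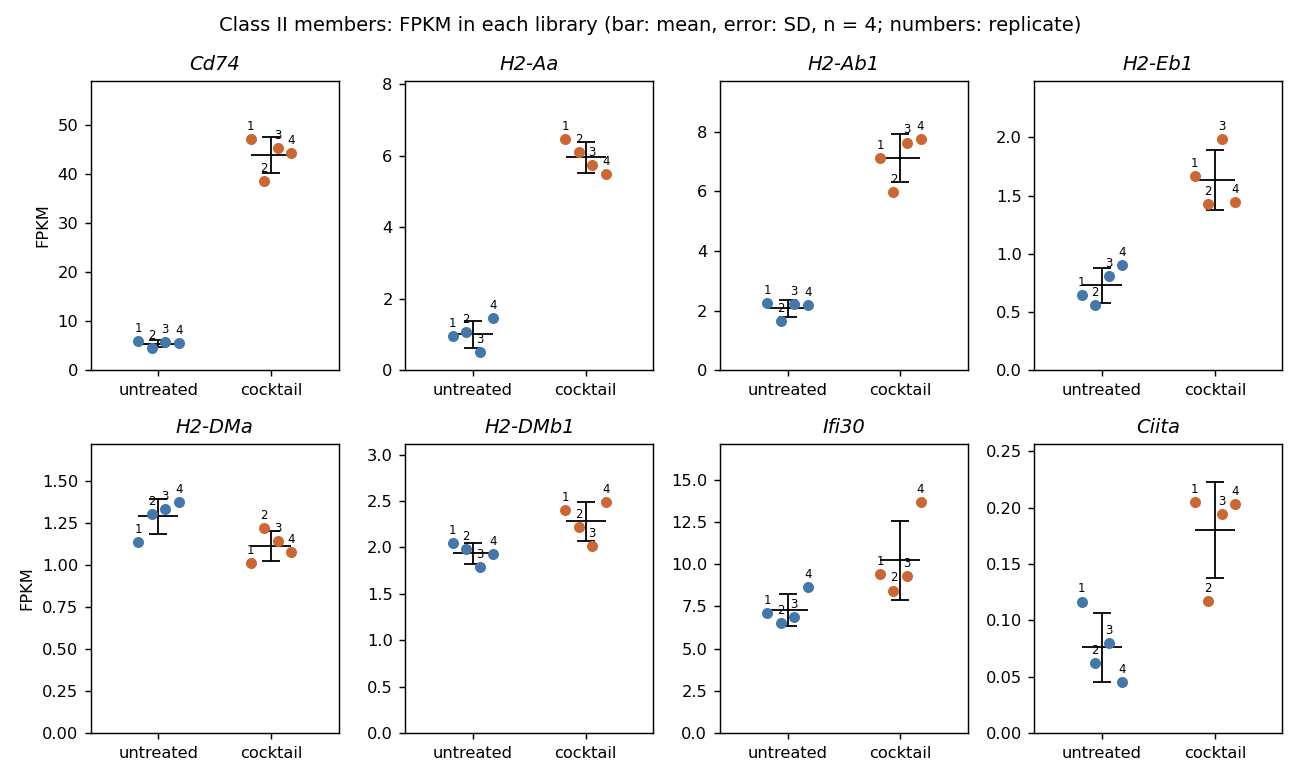
FPKM of each of the 8 members in the 4 untreated (blue) and 4 cocktail (orange) libraries, each panel on its own linear axis from 0, with the mean as a bar, the SD as the error and replicate numbers beside the points. Cd74 lies between 38.6 and 47.2 FPKM in all 4 cocktail libraries and between 4.49 and 5.90 in the untreated ones, while the groups of H2-DMa, H2-DMb1 and Ifi30 overlap.

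Cd74, the invariant chain, was 8.07-fold higher with the cocktail. It stood at 5.90, 4.49, 5.74 and 5.65 FPKM in untreated libraries 1 to 4 and at 47.2, 38.6, 45.4 and 44.4 in cocktail libraries 1 to 4. The groups did not overlap, and the lowest cocktail library lay far above the highest untreated one. Behind these values stood 122 to 165 fragments per untreated library and 1056 to 1343 per cocktail library. The log2 change was 2.80 (SE 0.076; limma, adjusted p = 2.6e-11), rank 49 of the 11845 genes tested. By mean FPKM the gene moved from rank 8309 of the table in untreated to rank 1471 in cocktail libraries. Cd74 lies on chromosome 18 from 60803849 to 60812652.

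The chains of the A molecule, the only complete classical class II pair of this strain, rose with it. H2-Aa, the α chain, stood at 0.964, 1.07, 0.512 and 1.45 FPKM in untreated and at 6.47, 6.10, 5.75 and 5.49 in cocktail libraries. These were 11 to 32 fragments against 119 to 139, and the mean was 5.95-fold higher, with a log2 change of 1.82 (SE 0.118; limma, adjusted p = 5.4e-08). With only 2 untreated libraries at 1 FPKM, H2-Aa needed its cocktail libraries to enter that test. In a voom fit of the recovered fragments, added after the data were seen and limited to genes with at least 10 fragments in 4 libraries, which H2-Aa had in each group, the change was 2.63 (SE 0.234; limma voom, adjusted p = 2.7e-08). H2-Ab1, the β chain, stood at 2.25, 1.66, 2.21 and 2.19 FPKM in untreated and at 7.13, 5.99, 7.64 and 7.77 in cocktail libraries. Its mean was 3.43-fold higher, with a log2 change of 1.40 (SE 0.084; limma, adjusted p = 2.6e-08). In both genes every cocktail library lay above every untreated one. In 24.1% of all genes tested the groups were apart in that direction, and in 38.5% they were apart with the cocktail lower.

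H2-Eb1, the β chain left without its partner, was 2.24-fold higher in mean FPKM with the cocktail. It stood at 0.649, 0.562, 0.806 and 0.900 FPKM in untreated and at 1.67, 1.43, 1.99 and 1.45 in cocktail libraries. The groups did not overlap, and the log2 change was 0.61 (SE 0.085; limma, adjusted p = 5.0e-05). It entered that test only through its cocktail libraries, so the test is no support on its own. The fragments were few, 18 to 31 per untreated and 46 to 68 per cocktail library, but each group met the filter of the voom fit, where the change was 1.15 (SE 0.216; limma voom, adjusted p = 1.6e-04). H2-Ea-ps, the E α pseudogene, was at 0 in all 8 libraries.

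The 3 chain genes lie side by side in the class II region of chromosome 17, H2-Ab1 from 34263227 to 34269418, H2-Aa from 34282744 to 34287823 and H2-Eb1 from 34305867 to 34316674 of GRCm38.p6. The table has 1 value a gene, with no split by exon or transcript. Class II genes have close copies, and the sources used here do not say how fragments shared between copies were assigned.

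Ciita, the transactivator, was the least abundant member and missed the level of 1 FPKM in every library. It stood at 0.117, 0.0624, 0.0796 and 0.0452 FPKM in untreated and at 0.205, 0.117, 0.195 and 0.203 in cocktail libraries. As fragments these were 17, 9, 12 and 7 against 31, 17, 30 and 31. Untreated library 1 and cocktail library 2 therefore rested on the same 17 fragments, and only the library totals kept the groups from overlapping. In the same voom fit its log2 change was 1.27 (SE 0.319; limma voom, adjusted p = 0.0022). The 9 and 7 fragments of untreated libraries 2 and 4 lay below the filter of that fit, which every cocktail library met. Ciita therefore entered the fit only through its cocktail libraries, so the test is no support on its own. That fit called 25.6% of its 13674 genes higher. Ciita lies on chromosome 16 from 10480014 to 10531064 and was counted over 7511 bases, so that its FPKM is low for the fragments it had.

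The 2 chains of H2-DM, the peptide exchanger, did not follow the classical chains. H2-DMa stood at 1.14, 1.30, 1.33 and 1.38 FPKM in untreated and at 1.01, 1.22, 1.14 and 1.07 in cocktail libraries. The groups overlapped, and the log2 change was -0.12 (SE 0.059; limma, adjusted p = 0.10). H2-DMb1 stood at 2.05, 1.99, 1.78 and 1.92 FPKM in untreated and at 2.40, 2.22, 2.01 and 2.49 in cocktail libraries. Cocktail library 3 lay below untreated library 1, and the log2 change was 0.16 (SE 0.060; limma, adjusted p = 0.035). The H2-DMb1 call was lost in 8 of 20 alternative fits, with adjusted p-values up to 0.20. These were the 2 voom fits, the fit with microglial level as a covariate, and those without untreated library 3 or 4, cocktail library 1 or 4, or cocktail libraries 1 and 2 (adjusted p = 0.095, 0.062, 0.087, 0.097 and 0.13). H2-DMa was counted over 6798 bases, while its longest transcript without a retained intron in the GENCODE annotation has 2005. Its level is therefore not ranked among those of other members. H2-DMa and H2-DMb1 lie on chromosome 17 from 34119693 to 34139101 and from 34153191 to 34160229. H2-DMb2, a close copy of H2-DMb1 next to it, was above 0 in 1 library only, cocktail library 4.

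Ifi30, a lysosomal reductase that opens disulfide bonds of antigens, stood at 7.09, 6.53, 6.85 and 8.64 FPKM in untreated and at 9.44, 8.44, 9.30 and 13.7 in cocktail libraries. Cocktail library 4 was the highest and cocktail library 2 lay below untreated library 4, so the groups overlapped. The mean was 1.40-fold higher and the log2 change 0.42 (SE 0.122; limma, adjusted p = 0.0090). Without cocktail libraries 3 and 4 the change was 0.27 (limma, adjusted p = 0.027), and with microglial level as a covariate it was 0.25 (limma, adjusted p = 0.093), which ended the call. Ifi30 lies on chromosome 8 from 70762773 to 70766663.

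The order of the members changed with the cocktail. In untreated cells Ifi30 was highest at 7.28 ± 0.937 FPKM (SD, n = 4), followed by Cd74 at 5.44 ± 0.644, H2-Ab1 at 2.08 ± 0.280, H2-DMb1 at 1.94 ± 0.113, H2-Aa at 1.00 ± 0.386, H2-Eb1 at 0.729 ± 0.152 and Ciita at 0.0759 ± 0.0306 (SD, n = 4). The library ranges of H2-Ab1 and H2-DMb1 overlapped, as did those of H2-Aa and H2-Eb1. In cocktail cells Cd74 was highest at 43.9 ± 3.71 FPKM, followed by Ifi30 at 10.2 ± 2.37, H2-Ab1 at 7.13 ± 0.812, H2-Aa at 5.95 ± 0.429, H2-DMb1 at 2.28 ± 0.213, H2-Eb1 at 1.63 ± 0.261 and Ciita at 0.180 ± 0.0423 (SD, n = 4). There the ranges of H2-Ab1 and H2-Aa overlapped, and the other neighbours were apart.

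Ratios within a library do not depend on how libraries are scaled, and 3 were compared. The test was an exact permutation test, two-sided, on the 70 ways to assign the libraries, with p-values adjusted over the 3 and 0.0286 as its smallest p. The ratio of Cd74 to H2-Aa, invariant chain per α chain, was 6.12, 4.19, 11.2 and 3.90 in untreated and 7.30, 6.33, 7.89 and 8.10 in cocktail libraries. The groups overlapped (exact permutation test, p = 0.34, adjusted p = 0.34), and the 11.2 rests on the 11 fragments of H2-Aa in untreated library 3. The ratio of H2-Aa to H2-Ab1, α chain per β chain, was 0.429, 0.646, 0.232 and 0.661 in untreated and 0.907, 1.02, 0.752 and 0.706 in cocktail libraries. All 4 cocktail libraries were higher (exact permutation test, p = 0.0286, adjusted p = 0.086), which did not pass after adjustment. The ratio of H2-DMa to H2-DMb1 averaged 0.668 ± 0.084 without and 0.492 ± 0.077 with the cocktail (SD, n = 4). Its groups overlapped only where cocktail library 3 passed untreated library 1 (exact permutation test, p = 0.057, adjusted p = 0.086). As H2-DMa was counted over 6798 bases, this ratio was compared between groups only, and its size was not read.

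**Figure D2:**
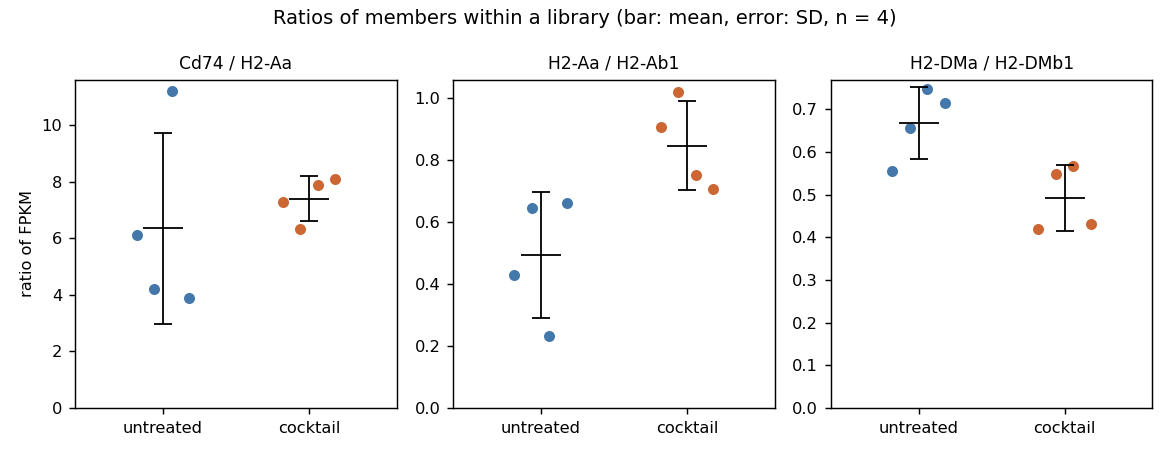
Ratio of FPKM values of 2 members within each library, for Cd74 to H2-Aa, H2-Aa to H2-Ab1 and H2-DMa to H2-DMb1, with the mean as a bar and the SD as the error, n = 4 per group. The untreated ratios of Cd74 to H2-Aa spread from 3.90 to 11.2 around the cocktail ones, while those of H2-Aa to H2-Ab1 all lie below 0.706, the lowest cocktail ratio.

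Other cells that carry class II could be present in such cultures, and their markers were set beside the members. The libraries carried the astrocyte markers: the summed level of 9 genes, Gfap, Aqp4 and Slc1a3 among them, was 1052 to 1188 FPKM in untreated and 845 to 872 in cocktail libraries. Of 21 microglial genes 11 were tested, 5 were called higher and 2 lower, against 26.6% and 41.1% of all genes tested. Their sum was 71.8 to 74.1 FPKM in untreated and 64.9, 65.5, 94.9 and 116 in cocktail libraries 1 to 4. Over 19 of these genes, a choice made after the values were seen, the sum was 16.7 to 20.4 FPKM in untreated and 20.6, 23.2, 49.8 and 69.3 in cocktail libraries 1 to 4.

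Cocktail libraries 3 and 4 thus stood apart from 1 and 2 in microglial markers. Itgam, an integrin of microglia and macrophages, was at 0.631 to 1.13 FPKM in untreated and at 1.21, 1.18, 3.08 and 4.99 in cocktail libraries. Csf1r, the receptor that keeps microglia alive, was at 0.596 to 1.17 FPKM in untreated and at 0.935, 1.15, 3.20 and 4.57 in cocktail libraries, and Tyrobp, a signalling adaptor of these cells, at 2.45 to 3.33 and at 3.15, 3.18, 5.91 and 8.66. The microglial genes Siglech and Gpr34 were at or near 0, Siglech in all 8 libraries. In bulk RNA, more cells of a type and more RNA per cell cannot be told apart.

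Cd74 and the 3 classical chain genes did not follow that split, and which cells carried their RNA was not tested. The mean of cocktail libraries 3 and 4 over that of 1 and 2 was 1.05 for Cd74, 0.894 for H2-Aa, 1.17 for H2-Ab1, 1.11 for H2-Eb1 and 1.29 for Ifi30, against 3.37 for Itgam, 3.72 for Csf1r and 2.72 for the 19 microglial genes. In cocktail libraries 1 and 2 the 19 genes were at 1.10 and 1.24 times their untreated mean, while Cd74 was at 8.68 and 7.09 times and H2-Aa at 6.47 and 6.10 times theirs. Without cocktail libraries 3 and 4 the log2 change of Cd74 was 2.77 (limma, adjusted p = 4.2e-09), that of H2-Aa 1.89 (adjusted p = 1.8e-06), that of H2-Ab1 1.30 (adjusted p = 9.7e-07) and that of H2-Eb1 0.56 (adjusted p = 0.00041). With the mean microglial level as a covariate these changes were 2.78, 1.92, 1.31 and 0.60, all called by limma with adjusted p-values of 3.0e-10 to 0.00037. H2-Eb1 entered both fits only through its cocktail libraries. H2-Aa reached 1 FPKM in only 2 untreated libraries, so it also needed its cocktail libraries to enter them.

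**Figure D3:**
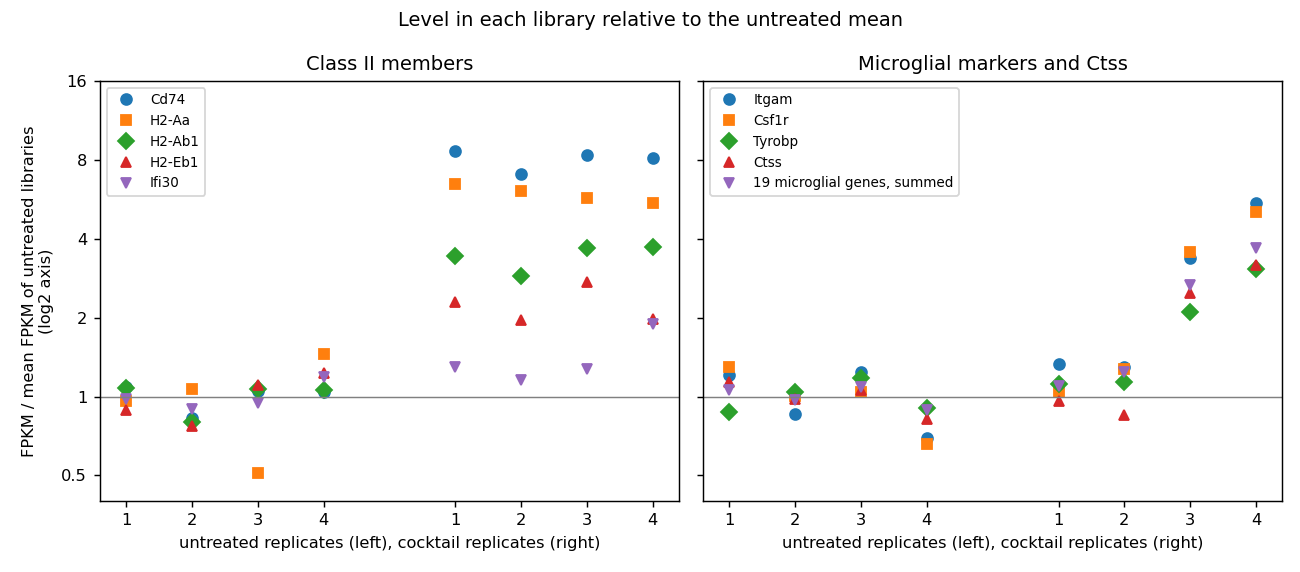
Level of 5 class II members (left) and of microglial markers and Ctss (right) in each library, as FPKM divided by the mean of the untreated libraries on a log2 axis. In cocktail libraries 1 and 2 Cd74 sits at 8.68 and 7.09 while the 19 summed microglial genes sit at 1.10 and 1.24, and in libraries 3 and 4 the microglial sum reaches 2.66 and 3.70 with Cd74 at 8.33 and 8.16.

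Markers of other antigen-presenting cells were low. Of 8 dendritic cell genes Xcr1, Cd209a and Ccr7 were at 0 in all libraries and Itgax was at most 0.104 FPKM. Batf3 and Zbtb46, transcription factors also found outside dendritic cells, were the 2 that were tested. Zbtb46 reached 1 FPKM only in cocktail libraries, with 0.855 to 0.921 FPKM in untreated and 1.35 to 1.78 in cocktail libraries, and Batf3 rose from 1.64 ± 0.563 to 6.11 ± 0.399 FPKM (SD, n = 4). They made up most of the sum of that list, 2.11 to 3.32 FPKM in untreated and 7.42 to 8.24 in cocktail libraries, and their part in the class II values was not tested. The 5 B cell genes summed to at most 0.231 FPKM in any library, with Ms4a1 at 0 throughout. All 6 T cell genes were at 0 in every library. The 6 border macrophage genes summed to 3.75 to 4.69 FPKM in untreated and 1.58, 1.67, 2.95 and 3.397 in cocktail libraries 1 to 4, with Cd163 at 0. Most of the untreated sum was F13a1, which fell from 3.40 ± 0.378 to 1.01 ± 0.168 FPKM (SD, n = 4). Ms4a7 was at 0.486 to 0.781 FPKM in untreated and at 0.261, 0.513, 1.62 and 2.15 in cocktail libraries 1 to 4. No other gene of the list passed 0.335 FPKM in any library.

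Of the 49 other genes of the class II pathway in the table, 37 were tested, 24 rose and 6 fell, against 26.6% and 41.1% of all genes tested. Cd40 and Cd83, among the 24, were tested only through their cocktail libraries. After median-ratio rescaling 26 were called higher and 3 lower. At a change of at least 1 on the log2(FPKM + 1) scale, 6 were called higher and 1 lower, against 4.08% and 4.56% of all genes tested. The lists were drawn up with earlier results of these data known, so their counts are not independent evidence.

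The route from interferon-γ to Ciita rose in most of its parts. Of 9 tested genes 7 rose and 0 fell, against 26.6% and 41.1% of all genes tested, and Irf2 and Usf1 did not pass. Ifng itself was at 0 in all 8 libraries, which allows up to 3 fragments per library. Jak2, the kinase bound to the receptor, stood at 8.24, 7.84, 8.03 and 8.09 FPKM in untreated and at 28.7, 27.5, 31.6 and 31.4 in cocktail libraries, a 3.70-fold higher mean (limma, adjusted p = 1.6e-11). Irf1, which acts on the Ciita promoter, rose 2.94-fold from 17.4 ± 0.883 to 51.3 ± 1.51 FPKM (SD, n = 4; limma, adjusted p = 1.4e-11). The ligand-binding receptor chain Ifngr1 rose from 30.5 ± 1.23 to 68.1 ± 1.83 FPKM (SD, n = 4; limma, adjusted p = 5.2e-11). The feedback inhibitor Socs1 rose 2.09-fold (limma, adjusted p = 1.3e-06). Irf8, a regulator of myeloid cells, was not tested at its level of 0.183 to 0.435 FPKM in untreated libraries, and it followed the microglial split with 0.362, 0.226, 0.781 and 1.05 FPKM in cocktail libraries 1 to 4.

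The factors of the promoter element and their relatives did not all move one way. Of 8 tested genes 5 rose and 2 fell, against 26.6% and 41.1% of all genes tested. Rfx5, the DNA-binding subunit of RFX, rose 1.37-fold from 7.13 ± 0.301 to 9.77 ± 0.246 FPKM (SD, n = 4; limma, adjusted p = 2.3e-06). Rfxap, another subunit of the same complex, fell from 15.9 ± 0.905 to 7.85 ± 0.063 FPKM, so that untreated cells had 2.03-fold more (SD, n = 4; limma, adjusted p = 1.6e-09). Nfyc, a subunit of the CCAAT-binding factor NF-Y, fell from 14.3 ± 0.355 to 12.8 ± 0.729 FPKM (SD, n = 4; limma, adjusted p = 0.0070). Nlrc5, the counterpart of Ciita for MHC class I, rose 2.06-fold to 3.79 ± 0.417 FPKM (SD, n = 4; limma, adjusted p = 2.7e-06).

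**Figure D4:**
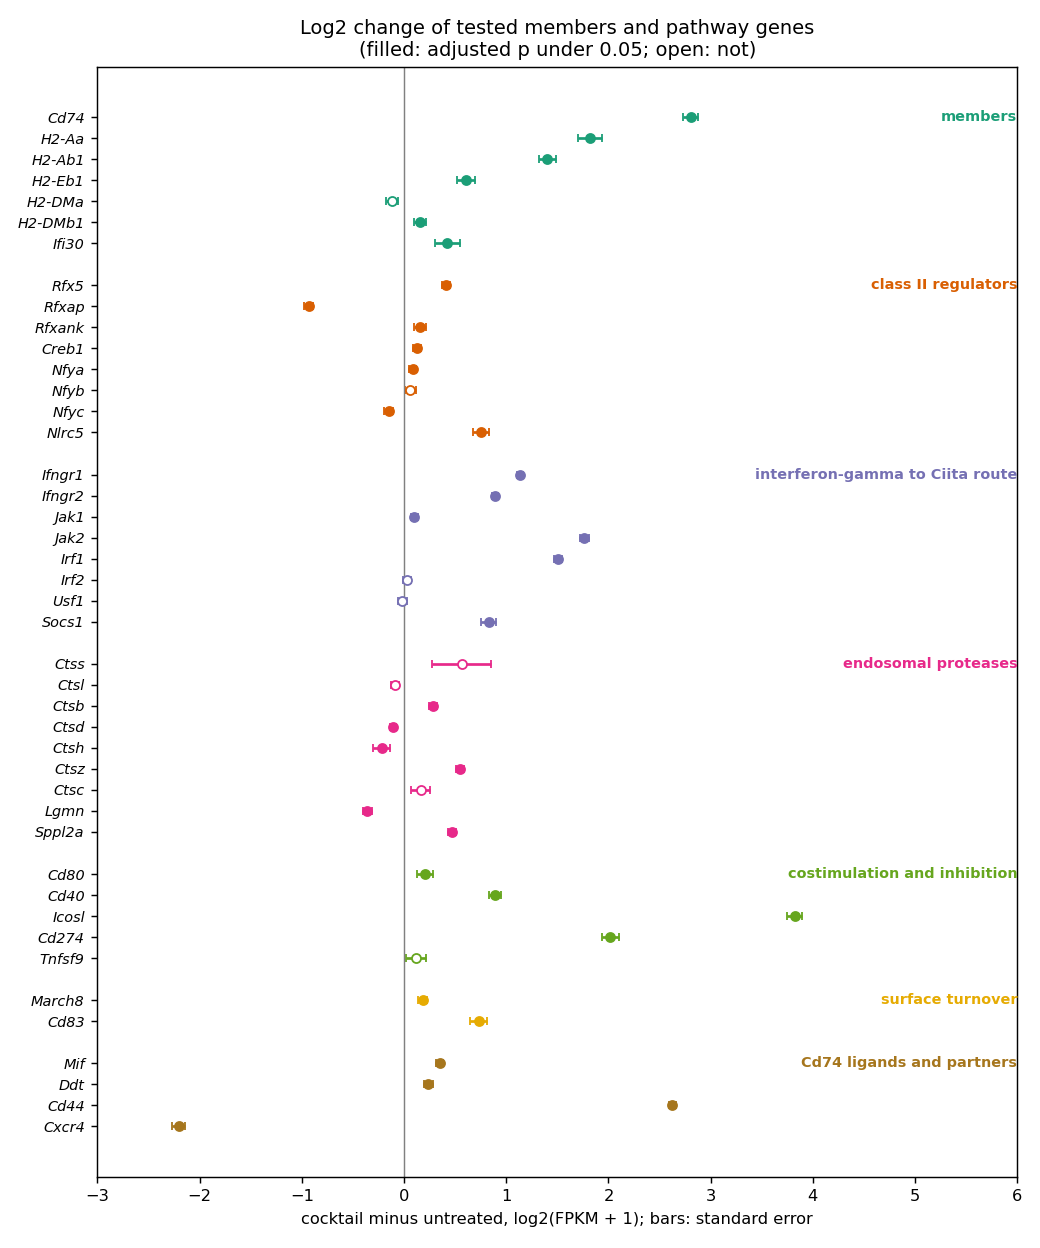
Log2 change, cocktail minus untreated on the log2(FPKM + 1) scale, of the 7 tested members and of tested pathway genes, grouped by list, with the standard error as a bar and filled points for an adjusted p under 0.05. Icosl at 3.82, Cd74 at 2.80 and Cd44 at 2.63 lie farthest to the right and Cxcr4 at -2.20 farthest to the left.

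The next list held the endosomal proteases that trim the invariant chain and cut antigens. Of 9 tested genes 3 rose and 3 fell, shares near those of all genes tested (26.6% and 41.1%), and no change reached 1 on the log2 scale. Ctsb, a broad lysosomal protease, rose from 290 ± 4.79 to 353 ± 18.9 FPKM (SD, n = 4; limma, adjusted p = 2.4e-05). Ctsd, the main aspartic protease of lysosomes, fell from 895 ± 24.9 to 829 ± 13.05 FPKM (SD, n = 4; limma, adjusted p = 0.0056). Ctss, which makes the last cuts in the invariant chain in myeloid cells, was at 2.28 to 3.17 FPKM in untreated and at 2.68, 2.36, 6.91 and 8.82 in cocktail libraries 1 to 4. Its groups overlapped (limma, adjusted p = 0.11), and its high libraries were those with high microglial markers. Ctsl, which can do the same work in other cells, stood at 116 ± 3.63 and 109 ± 5.60 FPKM in untreated and cocktail libraries (SD, n = 4), with an adjusted p of 0.055 by limma.

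Among the surface proteins that tune T cells beside class II, 4 of 5 tested genes rose and 0 fell, with Cd40 one of the 4. The shares of all genes tested were 26.6% and 41.1%. Icosl, the ligand of the costimulatory receptor ICOS, stood at 3.00, 3.00, 2.57 and 2.08 FPKM in untreated and at 49.7, 51.5, 50.04 and 50.9 in cocktail libraries. Its mean was 18.98-fold higher, with a log2 change of 3.82 (SE 0.072; limma, adjusted p = 1.3e-12). Cd274, which encodes the inhibitory ligand PD-L1, rose 5.20-fold from 2.71 ± 0.274 to 14.1 ± 1.93 FPKM (SD, n = 4; limma, adjusted p = 1.0e-09). Cd40, the receptor by which T cells act back on a presenting cell, averaged 0.368 ± 0.070 FPKM without the cocktail and 1.53 ± 0.060 with it (SD, n = 4), and reached 1 FPKM only with it. In the voom fit, whose filter each group met, its log2 change was 2.03 (SE 0.226; limma voom, adjusted p = 4.7e-07). The classical costimulatory gene Cd86 was at most 0.0528 FPKM in untreated libraries and at 0, 0.0914, 0.121 and 0.348 in cocktail libraries 1 to 4. It was not tested, and its highest values were again in libraries 3 and 4.

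Cd74 on the cell surface also acts as the receptor of the cytokine Mif, with Cd44 and the chemokine receptors Cxcr4 and Cxcr2 as partners. Of 4 tested genes of this list 3 rose and 1 fell, against 26.6% and 41.1% of all genes tested. Cd44, which passes on the signal, rose 6.32-fold to 218 ± 6.55 FPKM (SD, n = 4; limma, adjusted p = 3.8e-14). Cxcr4 fell from 17.6, 17.01, 17.1 and 15.9 FPKM in untreated to 3.25, 2.79, 3.05 and 2.47 in cocktail libraries, a 5.84-fold lower mean (limma, adjusted p = 3.0e-11). Cxcr2 was at 0 in all libraries, and Mif rose 1.28-fold to 130 ± 6.63 FPKM (SD, n = 4; limma, adjusted p = 3.2e-06). Of the genes for surface turnover, March8, a ubiquitin ligase with class II among its targets, rose 1.14-fold (limma, adjusted p = 0.0017). Cd83, which protects class II from such ligases, was 2.93-fold higher than its untreated 0.523 FPKM and reached 1 FPKM only in cocktail libraries. Its log2 change in the voom fit, whose filter each group met, was 1.53 (SE 0.217; limma voom, adjusted p = 8.9e-06).

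None of the 5 other class II region genes in the table passed 0.237 FPKM in any library. H2-Oa, a chain of the H2-DM inhibitor H2-O, had 1, 0, 0 and 0 fragments in untreated and 5, 3, 5 and 2 in cocktail libraries. H2-Ob, its partner chain, had 0, 0, 2 and 1 against 0, 0, 2 and 1. Both carry the promoter letters described above, as does H2-Eb2, which was at 0.

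The 5 genes with the profile most like that of Cd74 were Gbp4, Gbp9, Gbp2, Parm1 and Prr16. Likeness was the root mean square difference over the 8 libraries of log2(FPKM + 1) centred on the untreated mean, at 0.089 to 0.120. That scale understates changes of low genes. Their folds of mean FPKM were 12.7, 7.90, 7.05, 7.48 and 25.5 in that order, against 8.07 for Cd74. Gbp4, Gbp9 and Gbp2 encode interferon-inducible GTPases with close copies, among which fragments could be shared. Gbp9 stood at 7.68, 6.96, 8.53 and 9.22 FPKM in untreated and at 62.7, 59.4, 66.7 and 67.1 in cocktail libraries.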

How the data were processed

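Polyadenylated RNA was sequenced in 4 untreated and 4 cocktail libraries made with a stranded kit, per the labels' protocols, and grouped by sample titles. The treatment label of 3 cocktail libraries spells C1q with another digit. The authors deposited FPKM values per gene and library. The submitters' processing notes name mm10 and DESeq. The aligner, the counting program and its use of strand: not given in the sources used here. Whole fragments, gene lengths and totals were recovered from the FPKM ratios for each of the 16557 genes that 2 or more libraries had above 0. A chi-square per gene of 2.11 to 6.79 between libraries of a group lay above sampling noise, and each library was counted as 1 sample. Such spread does not show that the libraries came from separate cultures. Among genes with at least 20 fragments in a pair, the value was 2.29 for cocktail libraries 1 and 2. It was 2.55 for cocktail libraries 3 and 4, and 4.12 to 6.79 for pairs across that split.

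The main test was limma 3.58.1 (R 4.3.3) with a trended prior variance, run on log2(FPKM + 1) of genes that reached 1 FPKM in 4 or more libraries. It was tested on simulated data. Positions and promoters came from RefSeq GRCm38.p6 and transcript lengths from GENCODE. Alternatives were another filter, pseudocount, scaling, variance model, voom on fragments, a replicate block, a microglial covariate and left-out libraries. The members and lists were chosen with earlier results of these data known. Genes named from a list were those called with a log2 change of at least 1, or otherwise the 2 most abundant. Rfx5, Nlrc5, Socs1, Irf8, Ctss, Ctsl, Cd40, Cd86, Mif, H2-Oa and Ms4a7 were added after their values were seen. Some genes that enter the counts are not reported here. Marker lists of endothelium, neurons, oligodendrocyte lineage and fibroblasts were also summed per library. In untreated libraries the sums were 4.63 to 5.07, 129 to 148, 166 to 176 and 123 to 146 FPKM. In cocktail libraries they were 1.15 to 1.46, 48.9 to 55.7, 97.1 to 102 and 97.5 to 127 FPKM. Only the fibroblast sums overlapped between the groups, and whether the mix of cells differed was not tested.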

Additional observations from a re-analysis of the deposited data

Results flagged for a closer look

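In the 36 groups of 4 libraries checked for a value far from the other 3, of which chance flags about 1 in 20, there were 2. H2-Ab1 was low in untreated library 2, at 1.66 FPKM against 2.19 to 2.25 in the other untreated libraries. Ciita was low in cocktail library 2, at 0.117 FPKM against 0.195 to 0.205 in the other cocktail libraries, which is 17 fragments against 30 or 31.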

How the results depend on the processing

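Across 20 alternatives the direction of each of the 7 tested members held. Cd74, H2-Aa, H2-Ab1 and H2-Eb1 were called in all 20, with log2 changes of 2.73 to 3.01, 1.69 to 2.63, 1.30 to 1.77 and 0.54 to 1.15. In the alternatives that kept the filter of 1 FPKM, H2-Eb1 entered only through its cocktail libraries, and H2-Aa also needed its cocktail libraries to enter. Without a mean-variance trend H2-DMa was called lower (limma, adjusted p = 0.042), so that 1 member counted as lower. The count of members called higher lay between 4, with the microglial covariate, and 7, where Ciita entered. After median-ratio rescaling 3 pathway genes were called lower in place of 6. Leaving out 1 library at a time gave log2 ratio differences of 0.16 to 0.67 for Cd74 to H2-Aa, 0.56 to 1.06 for H2-Aa to H2-Ab1 and -0.53 to -0.38 for H2-DMa to H2-DMb1. The H2-Aa to H2-Ab1 and H2-DMa to H2-DMb1 differences passed after adjustment without untreated library 1 (exact permutation test, adjusted p = 0.043), at 0.86 and -0.53.

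Over all genes tested, the deviations of same-numbered libraries correlated at -0.044, 0.078, 0.086 and -0.0071. Such correlations cannot settle whether these libraries share more than a number, and the labels do not say. With the replicate number as a block the SE went from 0.076 to 0.033 for Cd74 and from 0.084 to 0.049 for H2-Ab1. It went from 0.122 to 0.054 for Ifi30, but was 0.059 and 0.060 for H2-DMa. With the replicate number as a block 6 members were called higher and 0 lower, and 23 pathway genes higher and 6 lower. The paired exact permutation tests of the 3 ratios, with adjusted p = 0.375, 0.1875 and 0.1875, cannot go below p = 0.125. Depth limits Ciita, H2-Oa and H2-Ob, which had at most 31 fragments per library.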
